A study of Mus musculus with 21 samples.

Results

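The respiratory chain and ATP synthase of mitochondria are built from 5 protein complexes of the inner membrane. Complexes I and II pass electrons from NADH and succinate to ubiquinone, complex III passes them to cytochrome c, and complex IV passes them to oxygen. Complexes I, III and IV pump protons, and complex V uses the proton gradient to make ATP. Most subunits are encoded in the nucleus and a few in the mitochondrial genome. Complex II is wholly nuclear, and the others need transcripts from both genomes. Some complex IV subunits exist as a ubiquitous and a muscle-type isoform.

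The genes described here are those whose symbols name a nuclear subunit of these complexes (Nduf followed by a, b, c, s or v, Sdha to Sdhd, Uqcr, Cox4 to Cox8 with a letter, and Atp5). They were chosen by symbol alone, not by any measured value. The probe annotation held 75 such genes on 115 probes, among 19020 named genes, and 71 of the 75 were detected well enough to be tested among 12531 genes. By complex these were 33 of 34 genes for complex I, 3 of 4 for complex II, all 7 for complex III, 12 of 14 for complex IV and all 16 for complex V. The 4 others, Ndufs1, Sdha, Cox8c and Cox7b2, did not reach the detection filter with any probe. Ndufs1 and Sdha encode indispensable core subunits, so their probes at background do not show that the transcripts were absent. Ndufa4 was counted with complex I by its symbol, although it is now regarded as a complex IV subunit, and Cox7a2l, a factor of respiratory supercomplexes, was counted with complex IV.

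Levels were measured on Illumina bead arrays in mouse prostate tumours taken from the anterior prostate. The labels name 2 genotypes: NP, with 8 arrays, and NPK, with 8 arrays of no stated stage, 3 arrays at 1 month (early stage) and 2 arrays at 3 months (late stage). In the published model both genotypes carry a tamoxifen-inducible Cre at the Nkx3.1 locus, which also removes 1 copy of Nkx3.1, and the groups share the alleles of NP, to which NPK adds another. No normal prostate was among the samples used here. The labels number the samples without saying whether each is another animal, and the spread that the p-values rest on may therefore be partly technical. The samples are whole tissue, in which fewer cells of a type and less RNA per cell cannot be told apart.

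Several features of the arrays bear on every comparison. NP replicates 4 and 5 differed by less than any other pair (SD of log2 differences 0.133 over 3462 bright genes, against 0.340 for the next closest pair) and were counted as 1 sample, so that NP had n = 7. The NP arrays lay on 2 chips (replicates 1 to 5, and 6 to 8), the NPK arrays on 3 other chips, and all 5 arrays labelled by month on 1 chip of their own. Chip and genotype therefore cannot be told apart, while 1 and 3 months share a chip. Arrays detected 19063 to 20405 probes in NP, 15855 to 18226 in NPK and 19458 to 20138 in the month-labelled groups, and the noise SD was 11.9 to 17.4 intensity units in NP, 11.0 to 26.1 in NPK and 8.59 to 10.1 at 1 and 3 months. Of 9 listed luminal epithelium markers, Krt8, Krt18 and Cdh1 were detected on all arrays and Pbsn on none, Hoxb13 was detected on 2 NP arrays only, Tgm4 on 3 of 8 NP and 1 of 8 NPK arrays and on none at 1 or 3 months, and Epcam on 0 of 2 at 3 months. At 3 months against NP, 3 of 5 tested luminal and 4 of 4 basal markers fell (median changes -1.34 and -2.46), where 24.1% of all genes fell. Mean levels of 8 seminal vesicle genes ranged from 4.88 to 8.16 in NP, 6.47 to 14.6 in NPK, 11.0 to 14.5 at 1 month and 5.61 to 7.69 at 3 months. Mean levels of 4 T and NK cell markers were 7.41 to 9.38 in NP and 4.78 to 7.81 in the NPK groups together.

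Subunit promoters are known as targets of NRF1, of ETS-family factors (among them the GABP complex) and of the estrogen-related receptors. RefSeq windows (GRCm38.p6) of the 250 bases before the annotated start were found for 64 of the 75 genes. Some genes had more than 1 window and were counted once if any window matched. A core of the NRF1 motif was GCGCA and GCGC with 1 base of any kind between them. It occurred on either strand for 18.8% of these 64 genes and for 4.23% of all 27018 genes with windows. The ETS core CCGGAAG occurred in 18.8% against 7.83%, and the estrogen-related receptor core AAGGTCA in 6.25% against 4.70%. Each motif was searched on its own. These are letter matches, not binding sites. The windows of 4 genes that the results return to are shown with matches in capitals. They were chosen after their values were seen: Cox6a1 and Cox8b as a ubiquitous and a muscle-type complex IV subunit, and Uqcrc1 and Atp5g2 as the genes with the largest rises past the threshold in NPK against NP and at 3 months against 1 month. Cox6a1 has the NRF1 core 162 and 117 bases before the start and the ETS core on the reverse strand 16 bases before it, Atp5g2 has the NRF1 core 42 bases before the start, and neither Cox8b nor Uqcrc1 has a match in its window.
Cox6a1 (chr5:115348959-115349208, minus strand): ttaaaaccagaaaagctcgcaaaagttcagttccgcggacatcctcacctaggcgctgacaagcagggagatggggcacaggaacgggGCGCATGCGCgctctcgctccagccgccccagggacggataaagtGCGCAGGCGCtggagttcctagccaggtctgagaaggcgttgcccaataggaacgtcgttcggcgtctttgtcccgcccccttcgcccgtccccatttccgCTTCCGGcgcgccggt
Cox8b (chr7:140900447-140900696, minus strand): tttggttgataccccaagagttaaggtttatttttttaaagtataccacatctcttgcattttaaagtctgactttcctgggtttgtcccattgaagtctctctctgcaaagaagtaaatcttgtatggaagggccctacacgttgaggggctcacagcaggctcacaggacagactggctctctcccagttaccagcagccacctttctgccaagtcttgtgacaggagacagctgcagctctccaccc
Uqcrc1 (chr9:108936398-108936647, plus strand): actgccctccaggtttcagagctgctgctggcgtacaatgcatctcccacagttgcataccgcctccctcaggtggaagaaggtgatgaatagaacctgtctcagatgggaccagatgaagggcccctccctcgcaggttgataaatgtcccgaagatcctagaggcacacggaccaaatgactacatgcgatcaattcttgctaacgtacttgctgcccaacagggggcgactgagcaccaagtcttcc
Atp5g2 (chr15:102671048-102671297, minus strand): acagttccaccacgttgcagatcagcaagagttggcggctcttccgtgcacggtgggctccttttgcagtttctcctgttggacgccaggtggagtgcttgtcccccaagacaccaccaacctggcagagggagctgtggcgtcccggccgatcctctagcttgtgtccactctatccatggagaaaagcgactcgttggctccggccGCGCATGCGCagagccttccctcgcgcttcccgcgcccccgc

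The subunit genes of NPK tumours had no common shift against those of NP tumours. The median fitted change of the 71 genes was -0.01 on the log2 scale, as it was for all 12531 genes. In the limma fit with Benjamini-Hochberg adjustment over all genes, 7 of 71 rose (15.0% of all genes rose) and 15 fell (18.3% of all genes fell), close to the background in both directions. The values of the 2 groups did not overlap for 1 gene higher in NPK (2.87% of all genes) and 7 genes lower in NPK (5.20% of all genes). The median level of the complex I genes on each array ran from 12.3 to 12.5 in NP and from 12.3 to 12.6 in NPK, and the groups overlapped for each of the 5 complexes.

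**Figure D1:**
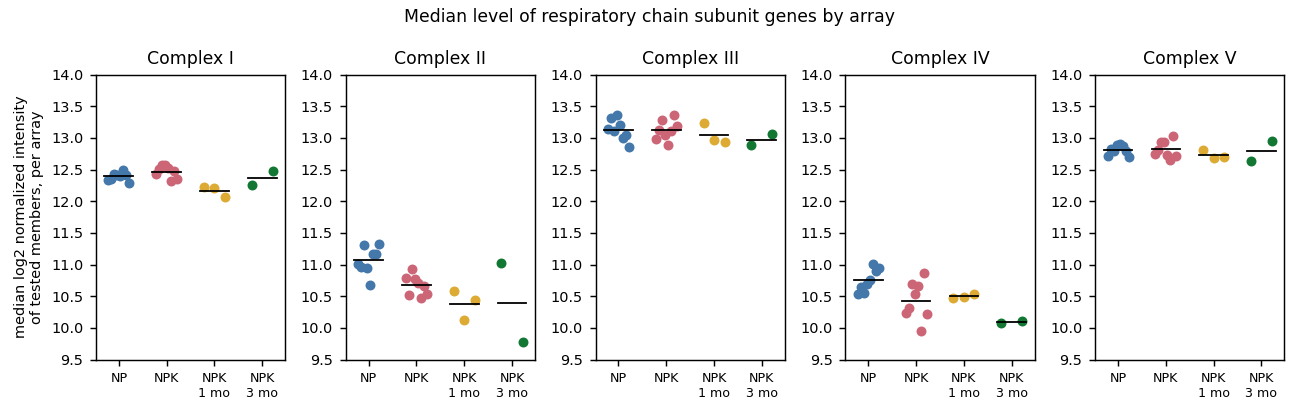
Median log2 normalized intensity of the tested genes of each complex on every array (points) by group, with a line at the group mean of the 21 arrays as deposited. The complex I and V medians of NP and NPK cover nearly the same range, while the complex II medians, over 3 genes, run from 10.7 to 11.3 in NP and from 10.5 to 10.9 in NPK.

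Within the list, most falls lay on dim probes. Of the 51 genes with a mean non-normalized intensity of 1000 or more, 7 (13.7%) rose and 4 (7.84%) fell, with a median change of 0.08, where 554 of all 3462 such genes rose and 548 (15.8%) fell, so the rises were no more frequent than the background. Of the 20 dimmer genes, 0 rose and 11 fell at an adjusted p of 0.05 or less in the limma fit, with a median of -0.87, while among all 9069 tested genes of that brightness 14.7% rose, 19.2% fell and the median was -0.02. These dim genes include accessory subunits of the membrane arm of complex I (Ndufb2, Ndufb4, Ndufb5, Ndufb9, Ndufb10), the membrane anchor Sdhd of complex II, the Rieske iron-sulfur protein Uqcrfs1 of complex III, Cox7a2 and Cox8b of complex IV, and the alpha and epsilon subunits of ATP synthase (Atp5a1, Atp5e). The brightness limit was set after the results were seen.

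**Figure D2:**
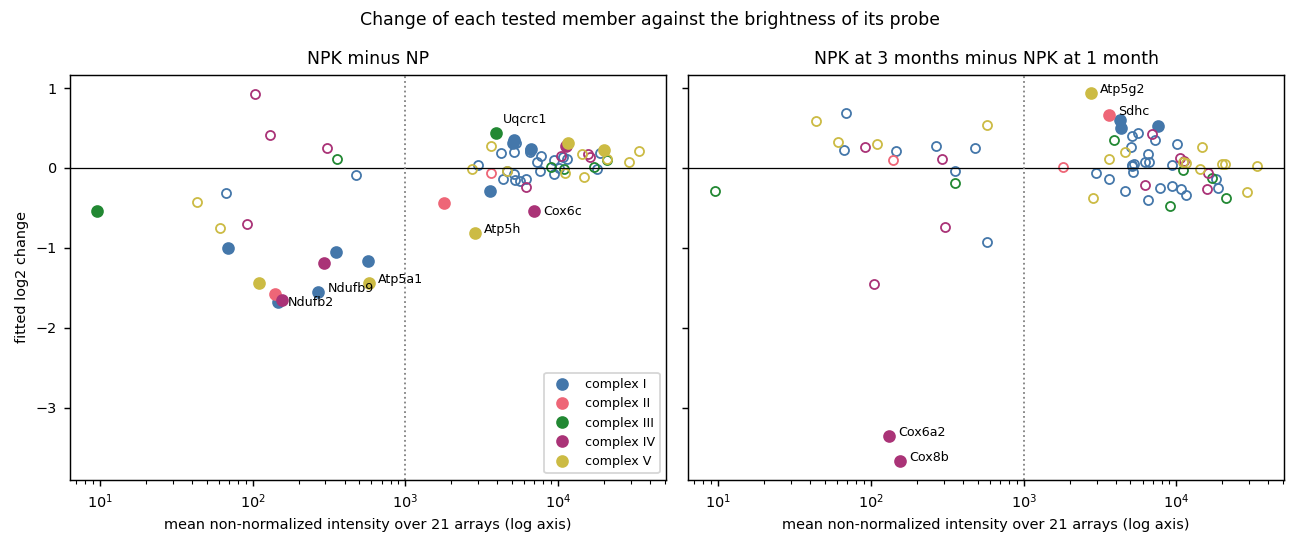
Fitted log2 change of each of the 71 tested genes (vertical axis) against the mean non-normalized intensity of its probe over 21 arrays (horizontal log axis), for NPK minus NP (left) and 3 months minus 1 month (right). Filled points passed an adjusted p of 0.05, colours give the complex, and the dotted line marks an intensity of 1000. On the left the large falls lie to the left of that line, and on the right Cox6a2 and Cox8b lie far below the other genes.

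In complex I, which takes electrons from NADH, 3 of 33 genes rose and 6 fell in NPK against NP. For this and the following complexes the background was 15.0% of all genes higher and 18.3% lower. Ndufb2 had levels of 7.14, 7.86 and 8.72 (lowest, median and highest log2 level) over the NP samples and 5.90, 6.34 and 6.95 over the NPK samples. Every NPK sample lay below every NP sample, and the fitted change was -1.67 ± 0.23 (SE, adjusted p = 3.7e-05 in limma). Ndufb9, also of the membrane arm, ran from 8.29 to 9.39 in NP and from 6.48 to 7.55 in NPK without overlap, a change of -1.55 ± 0.21. The rises were smaller. Ndufb6 ran from 12.49 to 12.73 in NP and from 12.76 to 12.96 in NPK, a narrow gap without overlap and a change of 0.23 ± 0.08. The accessory subunits Ndufa10 (0.35 ± 0.12) and Ndufa12 (0.31 ± 0.11) rose with overlapping groups, and each lost its call when any of several single samples was left out (adjusted p up to 0.063 and 0.082). Among the tested core subunits of the matrix arm, Ndufs3 fell by 0.29, and Ndufs7, Ndufs8, Ndufv1 and Ndufv2 did not pass the test.

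In complex II, which oxidises succinate and is also an enzyme of the citric acid cycle, 2 of 3 tested genes fell. Sdhd ran from 6.94 through a median of 7.89 to 8.55 in NP and from 5.20 through 6.36 to 7.16 in NPK, with a slight overlap and a change of -1.57 ± 0.29 (adjusted p = 0.00047 in limma). Sdhb, the iron-sulfur subunit, fell by 0.44 ± 0.15, a call lost without NP replicate 3, 7 or 8 or NPK replicate 2 or 6 (-0.43 to -0.40), and a second probe of similar brightness gave -0.46. Sdhc, the other membrane anchor, changed by -0.06 and did not pass.

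In complex III, Uqcrc1 rose. Uqcrc1, a core subunit, had a lowest, median and highest level of 11.55, 11.86 and 11.99 in NP and 11.89, 12.31 and 12.57 in NPK. The 2 lowest NPK samples reached into the NP range, and the change was 0.44 ± 0.11 (1.35-fold, adjusted p = 0.0054 in limma), the largest rise of the 71 genes past the threshold. The probe of Uqcrfs1 was above background on 2 of 8 NP arrays and 0 of 8 NPK arrays, so although the fit calls it lower, and it is counted so, no fall in its transcript was measured.

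In complex IV, which reduces oxygen, 1 of 12 genes rose and 3 fell. Cox6a1, the ubiquitous form of subunit VIa, ran from 13.23 to 13.55 in NP (median 13.39) and from 13.40 to 13.85 in NPK (median 13.70). The groups overlapped at 1 NPK sample, and the change was 0.28 ± 0.09, with 0.26 from a second bright probe. Cox7a2 fell without overlap, from 8.29 to 9.49 in NP to 6.94 to 7.98 in NPK (-1.19 ± 0.23), and Cox6c, a small structural subunit on a bright probe, changed by -0.54 ± 0.14 with overlap. Cox8b is described with the muscle-type isoforms. Cox6b1 (0.17), its testis-type counterpart Cox6b2 (0.93 ± 0.41, NP 5.58 to 6.66, NPK 5.62 to 8.80) and Cox7a2l (-0.23) did not pass. Cox4i1, the major subunit IV isoform, lies outside the symbol rule and changed by 0.07 without passing, and Ndufab1, the acyl carrier protein of complex I, also outside it, rose by 0.24 ± 0.09.

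In complex V, 2 of 16 genes rose and 3 fell. Atp5a1, the alpha subunit of the catalytic head, had a lowest, median and highest level of 9.31, 9.63 and 10.37 in NP and 7.93, 8.45 and 8.83 in NPK, without overlap and with a change of -1.44 ± 0.19 (adjusted p = 3.5e-05 in limma). Atp5b, the beta subunit of the same head, changed by 0.21 and did not pass. Atp5h, subunit d of the peripheral stalk, was the only one of the 7 genes lower without overlap that lay above the brightness limit, with 11.66 to 12.29 in NP, 10.91 to 11.27 in NPK and a change of -0.81 ± 0.13. Atp5e of the central stalk changed by -1.44 ± 0.22, Atp5c1, the gamma subunit, by 0.31 ± 0.09 and Atp5j2, a membrane subunit, by 0.22 ± 0.08, a call lost when any 1 of 7 samples was left out (adjusted p up to 0.081).

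The genes that fell on dim probes also differed between the chips of the NP samples. For 10 of the 11, replicates 6 to 8 were higher than replicates 1 to 5, by 0.75 to 1.07 on the log2 scale, and the exception was Uqcrfs1, whose probe was at background. Over all 20 dim subunit genes the median difference between these chips was 0.79, against 0.08 for all dim genes tested and 0.01 for the 51 bright subunit genes. Atp5a1 averaged 9.51 on the first NP chip, 10.35 on the second and 8.14 to 8.52 on the NPK chips, so that the change was -1.07 against the first NP chip and -1.93 against the second. Without the second NP chip 9 of the 15 falls still passed, while the share of all genes called went from 33.3% to 22%. With the chip as a random block, which called 19.0% of all genes, 11 falls passed. So did 2 rises, Uqcrc1 (adjusted p = 0.0486 in limma) and Atp5c1 (adjusted p = 0.0442). In all 3 of these settings (without either NP chip, and with the chip as a random block) the falls that passed were Atp5a1, Atp5e, Atp5h, Cox7a2, Ndufb2, Ndufb5, Ndufb9, Sdhd and, at background, Uqcrfs1. The block fit applies 1 within-chip correlation (0.18) to all genes, although these genes differed more between the NP chips than most. No chip held both genotypes, so passing any of these settings does not separate chip from genotype. Detection and noise also differed between NP and NPK arrays, and their part in these falls was not tested.

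**Figure D3:**
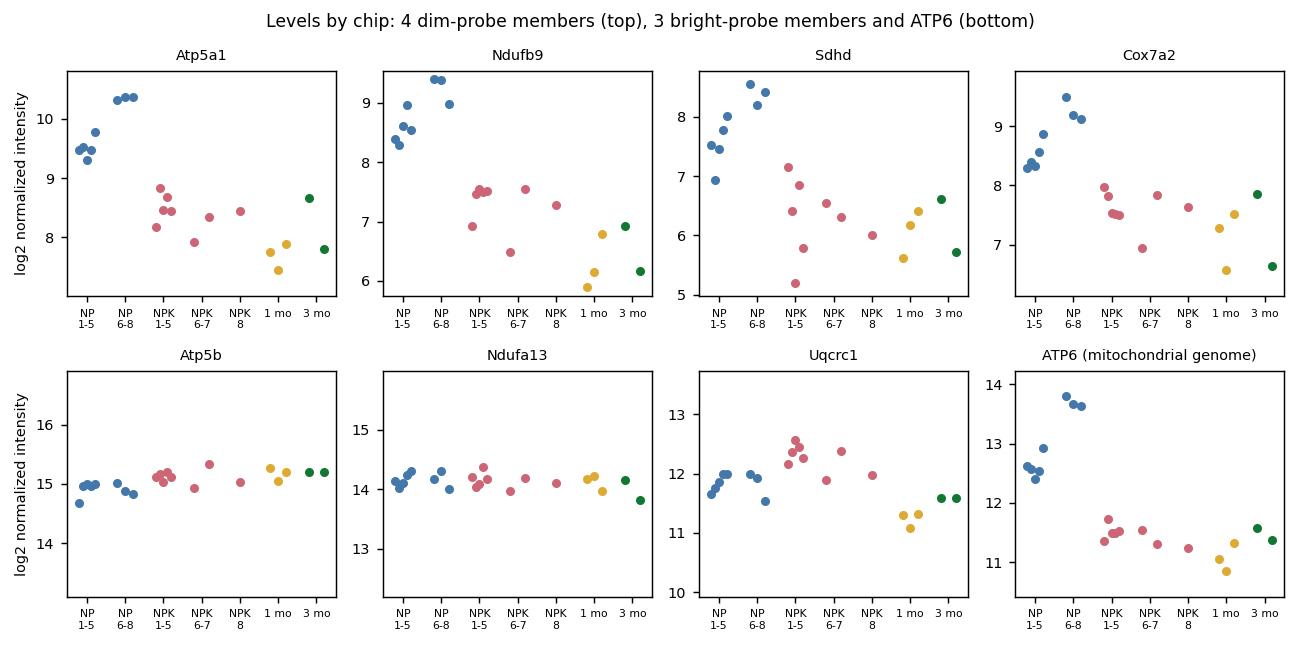
Log2 normalized intensity of 4 genes with dim probes (top row), 3 with bright probes and the mitochondrially encoded ATP6 (bottom row) on every array, ordered by chip. Each panel spans the same log2 range. Atp5a1, Ndufb9, Sdhd, Cox7a2 and ATP6 are higher in NP replicates 6 to 8 than in NP replicates 1 to 5 and lower in NPK, whereas Atp5b and Ndufa13 are level.

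Probes of the same gene did not always move together, which limits what a single probe says of its gene. The second probe of Atp5a1, with a mean intensity of 283 against 579, changed by 0.17 where the first gave -1.44, and the second probe of Ndufb10 changed by 0.02 against -1.17. For Ndufs4, a complex I subunit whose brightest probe changed by 0.32 without passing, the other 3 probes changed by -0.80, -0.99 and -0.63. A dim second probe of Ndufa5 changed by -1.64 and its bright probe by -0.08. Which transcript each probe reads was not examined.

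Normalization sets the sign of the small rises. When arrays were scaled to a common median in place of quantile normalization, the median change of all genes in NPK against NP moved from -0.01 to -0.38, and 6 of the 7 rises (all but Uqcrc1) turned to small negative values. Relative to that median all 22 called genes kept their direction. The falls of Ndufb2, Ndufb9, Sdhd, Cox7a2, Atp5a1 and Atp5e passed in each of the 33 alternatives run for each of them.

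The subunits encoded by the mitochondrial genome were measured by probes for 8 of 13 genes, of which 7 were tested. In NPK against NP, 0 rose and 6 fell, where 15.0% of all genes rose and 18.3% fell. ATP6, of the proton channel of complex V, ran from 12.40 to 13.80 in NP and from 11.24 to 11.72 in NPK, without overlap and with a change of -1.60 ± 0.20 (adjusted p = 2.0e-05 in limma). COX2, a catalytic subunit of complex IV, changed by -1.18 ± 0.16 and ND1, a core membrane subunit of complex I, by -0.98 ± 0.12, both without overlap. CYTB of complex III changed by -0.15 and did not pass. The same 3 genes were higher on the second NP chip than on the first, with ATP6 at 13.63 to 13.80 against 12.40 to 12.93. All 3 falls passed with the chip as a random block, a fit that does not separate chip from genotype. The other falls were of ND4L (-1.51), ND4 (-0.24) and ND5, further complex I subunits. ND5 was above background on 8 of 8 NP and 2 of 8 NPK arrays, so no size is given for it. ND4L averaged 7.53 on the first NP chip, 9.12 on the second and 5.84 to 7.04 on the NPK chips. Its size therefore depends strongly on which NP chip is used. The means of ND4, ND5 and CYTB were also higher on the second NP chip. At 3 months against 1 month the genes of the mitochondrial genome did not pass, with COX2 nearest at 0.75 (adjusted p = 0.070 in limma).

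Between 1 and 3 months of NPK tumours, on 1 shared chip, few subunit genes changed. In limma 5 of 71 rose (9.44% of all genes rose) and 2 fell (9.77% of all genes fell), with a median change of 0.05 against 0.02 for all genes. With 3 against 2 arrays the values did not overlap for 15 genes higher and 16 genes lower at 3 months, 31 of 71 together, where the background was 25.4% higher and 24.3% lower. The 5 rises were all on probes above the brightness limit and the 2 falls were the muscle-type subunits Cox6a2 and Cox8b.

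Atp5g2, which encodes the c subunit of the proton-driven rotor of complex V, measured 10.23, 10.67 and 10.50 at 1 month and 11.19 and 11.62 at 3 months. Both late samples lay above all early ones, and the change was 0.94 ± 0.21 (1.92-fold, adjusted p = 0.0041 in limma). Its levels at 3 months lay within the NP and NPK range of 11.00 to 11.85, and those at 1 month lay below it. Sdhc, a membrane anchor of complex II, measured 11.95, 11.80 and 12.03 at 1 month and 12.54 and 12.62 at 3 months, a change of 0.66 ± 0.16 (adjusted p = 0.0072). Here the late samples were the highest of all 21 arrays. In complex I, Ndufa9 (0.60 ± 0.19) and Ndufa7 (0.53 ± 0.17), accessory subunits of the matrix arm, and Ndufs8 (0.50 ± 0.15), a core iron-sulfur subunit, rose as well. With only 2 late arrays each of them counts heavily: without 3-month replicate 2 the change of Ndufa7 was 0.30 and that of Atp5g2 0.72, and neither passed. Ndufa9 did not pass without either 3-month array (0.61 and 0.60) or without 1-month replicate 1 or 2, nor did Ndufa7 without 1-month replicate 1 or 2, while Sdhc passed without any single array. With the muscle mean as a covariate, Sdhc (0.50, adjusted p = 0.12 in limma), Ndufa9 and Ndufa7 did not pass. With the seminal vesicle mean only 1 of the 71 genes passed as higher, and Atp5g2 (0.85, adjusted p = 0.060 in limma) did not. The share of all genes called went from 19.2% to 11.1% in that fit. Both means were higher on all 1-month arrays than on the 3-month arrays, so covariate and group cannot be well separated. In a fit of only these 2 groups, which called 10.7% of all genes, 0 of the 5 rises passed (adjusted p = 0.061 for Atp5g2 and 0.074 for Sdhc in limma). Single results for Ndufs8 with either covariate are not given.

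The muscle-type isoforms gave the largest changes. Cox6a2, the heart and skeletal muscle form of subunit VIa, measured 9.47, 9.38 and 9.11 at 1 month and 6.41 and 5.53 at 3 months, a change of -3.35 ± 0.93 (adjusted p = 0.015 in limma). Against NP samples, at 5.09 to 6.83, the 1-month samples were higher by 3.59 ± 0.70, and 5 of 8 NP arrays detected it. Cox8b, the muscle-type subunit VIII of rodents, measured 9.05, 8.98 and 8.74 at 1 month, and neither 3-month array, at 5.42 and 5.10, was above background. Without 3-month replicate 1 neither passed (adjusted p = 0.056 for Cox6a2 and 0.052 for Cox8b), and Cox6a2 did not pass without replicate 2 (adjusted p = 0.11). The 1-month level of Cox8b was at least 10.3-fold higher than at 3 months, where the lowest detected level stands in for the undetected one (adjusted p = 0.0078 in limma). In NPK without a stage, Cox8b was detected on 2 of 8 arrays, replicates 4 and 5, at 7.93 and 7.66, and in NP on 8 of 8 at 6.20 to 8.46, a change of -1.65 ± 0.52 that passed in limma (adjusted p = 0.020) and did not with the chip as a random block (adjusted p = 0.068) or in the authors' values (-0.60, adjusted p = 0.053). Cox7a1, the muscle-type subunit VIIa, overlapped between groups, with 7.30 to 8.92 in NP, 7.80 to 9.08 in NPK, a median of 8.89 at 1 month and 7.87 and 8.32 at 3 months, and passed in none of the 4 comparisons.

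Transcripts of skeletal muscle moved with Cox6a2, and with Cox8b between 1 and 3 months. At 1 month against NP, Cox8b was not called (means of 8.93 at 1 month and 7.29 over the NP samples). Of 17 tested muscle genes 15 rose and 0 fell at 1 month against NP, where 17.7% of all genes rose and 19.7% fell. At 3 months against 1 month 1 rose and 11 fell, where 9.44% of all genes rose and 9.77% fell. Their mean level was 5.70 to 6.84 in NP, 8.60 to 9.04 at 1 month and 6.39 to 6.67 at 3 months. In NPK without a stage it was 5.64 to 8.44, with replicates 4 and 5 at 8.44 and 7.97, the arrays on which Cox8b was detected. Ckm, the muscle creatine kinase, was above background on 0 of 8 NP arrays, 3 of 8 NPK arrays, 3 of 3 at 1 month and 0 of 2 at 3 months. With the muscle mean as a covariate the change of Cox6a2 at 1 month against NP was -0.09 in place of 3.59. At 3 months against 1 month the change of Cox6a2 was -0.43 (adjusted p = 0.72 in limma) and that of Cox8b -1.02 (adjusted p = 0.41). The muscle mean of every 1-month array lay above those of all NP and 3-month arrays, so covariate and group cannot be well separated here. These values therefore do not show how much of the change muscle content accounts for. In NPK against NP the fall of Cox8b was -2.35 with that covariate (adjusted p = 0.00014 in limma). In the main fit of that comparison 15 of the 17 muscle genes had positive changes, opposite to Cox8b, and 2 passed (15.0% of all genes rose). Of 9 listed adipocyte markers 3 were tested. In NPK against NP only 1 of these 3 had a positive change (-1.33 to 1.22, median -0.48). At 1 month against NP all 3 had positive changes (0.37 to 1.73, median 0.42). At 3 months against 1 month 0 of 3 did (-1.27 to -0.49, median -0.93), the same directions as for Cox6a2. Ucp1, which marks brown fat, was detected on no array, while Cidea, of brown fat and other lipid-storing cells, was detected on 1 of 8 NP arrays, 4 of 8 NPK arrays, 3 of 3 at 1 month and 1 of 2 at 3 months. The fit called Cidea higher than NP in NPK and at 1 month, and its fall at 3 months did not pass (adjusted p = 0.070). Its part in the Cox6a2 and Cox8b results was not tested.

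**Figure D4:**
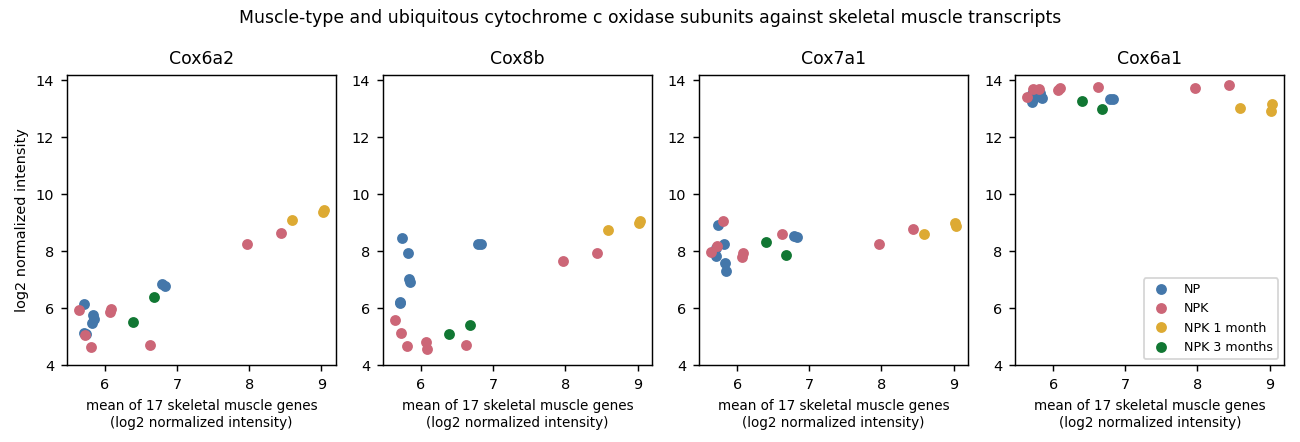
Log2 normalized intensity of the muscle-type subunits Cox6a2, Cox8b and Cox7a1 and of the ubiquitous Cox6a1 on each of the 21 arrays (vertical axis) against the mean log2 level of 17 skeletal muscle genes on the same array (horizontal axis), coloured by group. Cox6a2 is highest on the 1-month arrays and on NPK replicates 4 and 5, where muscle genes are highest, Cox8b is also present on NP arrays with low muscle levels, and Cox6a1 is nearly level.

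Against NP, more subunit genes fell than rose in the month-labelled NPK tumours, but these groups share no chip with NP, and chip and group cannot be told apart. At 1 month 5 of 71 genes rose and 26 fell in limma, where 17.7% of all genes rose and 19.7% fell (37.5% together), and the median change was -0.23 against -0.00 for all genes. At 3 months 6 rose and 21 fell, where 23.9% and 24.1% of all genes did (48.0% together), with a median of -0.23 against -0.05. Both comparisons share the NP samples. The values did not overlap for 28 genes lower at 1 month (19.6% of all genes) and 23 lower at 3 months (26.4% of all genes).

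At 1 month the falls took in bright probes as well, with 18 of the 51 bright genes (35.3%) lower and 3 (5.88%) higher, where 19.9% and 19.0% of all 3462 bright genes were. Ndufs8 ran from 12.13 to 12.49 in NP and measured 11.35, 11.27 and 11.29 at 1 month, well apart, a change of -0.96 ± 0.11 (adjusted p = 7.9e-06 in limma). Its companion Ndufs7, which also holds an iron-sulfur centre of complex I, changed by -0.70 ± 0.12. In complex V the delta subunit of the central stalk, Atp5d, changed by -0.95 ± 0.14 and Atp5h by -1.18 ± 0.18, and in complex IV Cox6c changed by -1.45 ± 0.18. Uqcrc1, which was higher in NPK than in NP, was lower than NP at 1 month (-0.58 ± 0.15) at levels of 11.30, 11.09 and 11.33. Ndufa10 (0.63 ± 0.16), Uqcrc2 (0.35 ± 0.13) and Atp5pb (0.53 ± 0.16) were among the genes that rose, but a second Atp5pb probe of nearly the same brightness gave -0.29. With the muscle mean as a covariate the count at 1 month against NP was 2 higher and 12 lower, and with the seminal vesicle mean it was 2 higher and 14 lower, while the share of all genes called fell from 37.5% to 14.8% and 14.1%. Among the 51 bright genes at 3 months 12 (23.5%) fell and 5 (9.8%) rose, where 30.0% and 24.8% of all bright genes did. Falls on bright probes were thus no more frequent there than the background. Sdhc (0.89 ± 0.14) and Ndufv1 (0.56 ± 0.16), the NADH-binding subunit of complex I, were higher at 3 months than in NP, and the falls included Atp5h (-1.56 ± 0.21) and Ndufs7 (-0.75 ± 0.13).

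Of 14 tested regulators of mitochondrial gene expression, 3 rose and 3 fell at 3 months against 1 month, where 9.44% of all genes rose and 9.77% fell. Esrrg, an estrogen-related receptor, measured 8.04, 7.80 and 7.91 at 1 month and 4.89 and 5.62 at 3 months, where 1 of 2 arrays was above background. The late samples were below all 19 other arrays, and the change was -2.66 ± 0.64 (adjusted p = 0.0063 in limma), with -1.05 from a second, dimmer probe. The coactivator Ppargc1b measured 8.77, 8.20 and 8.42 at 1 month and 5.57 and 7.41 at 3 months (-1.98 ± 0.42), and without 3-month replicate 1 the change was -1.05 and did not pass. Esrra, the related receptor on a bright probe, fell by 0.65 ± 0.17, and a second probe gave -0.74. Nrf1 rose by 0.76 ± 0.19, from 9.32, 9.48 and 9.04 to 10.11 and 9.95, while a second, dimmer probe gave 0.22. The coactivator Pprc1 rose by 0.77 ± 0.21 and Tfam, which packages and transcribes mitochondrial DNA, by 0.45 ± 0.15. Without 3-month replicate 1, Esrrg (-2.30), Nrf1 (0.68), Pprc1 (0.68) and Tfam (0.29) did not pass, and without replicate 2 Esrra (-0.50) did not. Tfam also failed without any 1 of the 1-month arrays and Pprc1 without 1-month replicate 1. With the muscle mean as a covariate Esrra (-0.38, adjusted p = 0.25) and Tfam (0.40, adjusted p = 0.21) did not pass, nor did Esrra under median scaling (-0.41, adjusted p = 0.14). In the authors' values Ppargc1b (-0.77, adjusted p = 0.066), Pprc1 (adjusted p = 0.078) and Tfam did not pass, with the mean of all probes Esrrg and Nrf1 did not, and with the seminal vesicle mean Pprc1 and Tfam (0.21) did not. In NPK against NP, Esrra (0.28 ± 0.10) and Pprc1 (0.64 ± 0.12) rose and Tfb1m, a mitochondrial rRNA methyltransferase on a dim probe, fell by 1.56 ± 0.27.

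**Figure D5:**
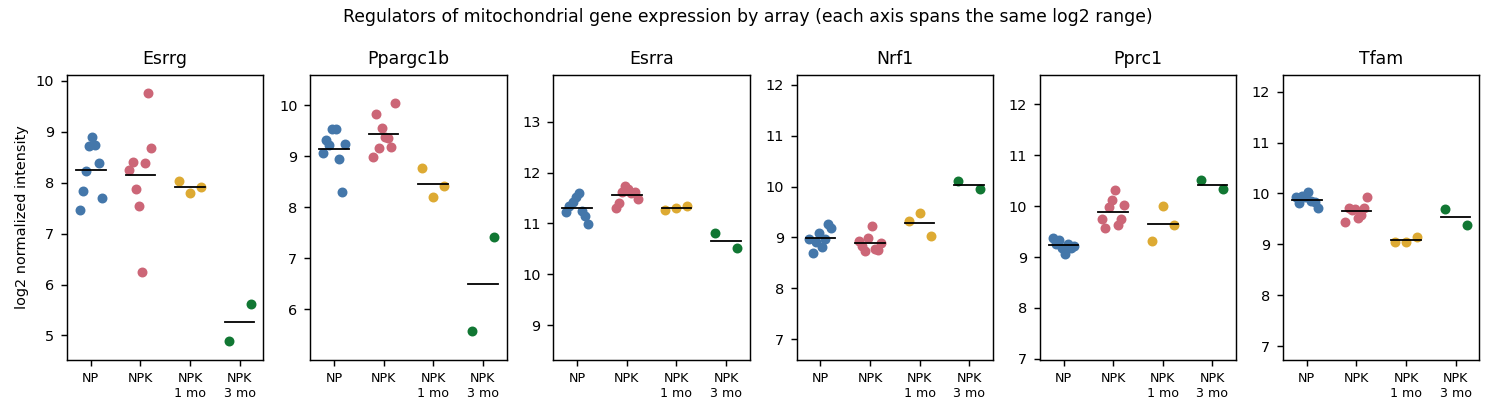
Log2 normalized intensity of 6 regulators of mitochondrial gene expression on every array (points) by group, with a line at the mean of the arrays. Esrrg, Ppargc1b and Esrra are lowest on the 2 arrays at 3 months, and Nrf1 and Pprc1 are highest there.

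Genes that work beside the subunits showed no common direction in NPK against NP, where 15.0% of all genes rose and 18.3% fell. Of 11 tested citric acid cycle genes 1 rose and 3 fell, of 11 tested assembly factors of complex I 1 rose and 3 fell, of 12 of complex IV 1 rose and 2 fell, and of 72 tested genes of the mitochondrial ribosome 9 rose and 11 fell. The cytosolic ribosome had 4 of 57 higher and 13 lower. Cox20, an assembly factor that accompanies COX2, changed by -0.87 ± 0.16, and Dld, a subunit shared by several dehydrogenases of the mitochondrial matrix, was called lower, with 8 of 8 NP and 2 of 8 NPK arrays above background. At 3 months against 1 month 14 of 72 genes of the mitochondrial ribosome rose and 0 fell in limma, and of the cytosolic ribosome 12 of 57 rose and 1 fell, where 9.44% of all genes rose and 9.77% fell. Cycs, which encodes cytochrome c, did not pass in NPK against NP (-0.03) and was higher than NP at 1 month (0.60 ± 0.15) and at 3 months (0.82 ± 0.18).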

How the data were processed

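Total RNA of the prostate tumours was amplified and biotin labelled with Illumina kits, per the labels' protocols. The deposited intensity table holds linear bead intensities per probe (45126 probes), from which the authors had subtracted background but which they had not normalized between arrays, as its values show. The authors' value table is on a log2 scale. Its quartiles differ between the 16 NP and NPK arrays and the 5 month-labelled arrays, so it was used as an alternative within each set only. BeadStudio and lumi are named, without a role, per the submitters' processing notes.

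Each array was background corrected with limma's normal-exponential model (background mean of 0, noise SD from the values below 0), raised by an offset of 16, quantile normalized between arrays and put on the log2 scale. Of all probes of a gene, the one with the highest mean non-normalized intensity stood for it. The gene was tested if that probe was detected on at least 3 arrays (above the level noise exceeds with a probability of 0.01). All 4 groups entered 1 fit (limma 3.58.1 in R 4.3.3, 20 samples, 16 residual degrees of freedom, two-sided, Benjamini-Hochberg over 12531 genes, threshold 0.05). Errors are moderated SEs. Genes named by rule were, for NPK against NP and for 3 months against 1 month, up to 2 called genes per complex with the largest rise and 2 with the largest fall, the Sdh genes, the tissue isoforms of complex IV, Cox4i1 and Ndufab1, and up to 3 genes with the smallest adjusted p of each further list. Other named genes were picked after their values were seen. Members and gene lists were chosen with earlier results of these data known. The number of arrays limits the precision. In simulated data, tested with 200 changed genes among 12531, a log2 change of 1 was recovered for 71% of genes in NPK against NP and 26% at 3 months against 1 month, and a change of 0.5 for 17.5% and 0%. The data call a far larger share of genes (33.3% and 19.2%), which eases the adjusted threshold, and the simulation had no chip effect. These rates therefore do not give the sensitivity of the calls reported here.

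Same-numbered NP and NPK samples did not deviate together (correlations from -0.13 to 0.08), so replicate numbers did not pair them. Alternatives were median scaling, offset, filters, the mean of probes, chip and replicate number as blocks, array weights, muscle and seminal vesicle covariates (the latter added after seeing the data), the authors' values and left-out samples. Both covariate means were higher on every 1-month array than on any NP or 3-month array. In comparisons with 1 month, covariate and group therefore cannot be well separated, and a call lost with a covariate does not show its cause. All 75 members matched RefSeq by gene ID. Longer letters for the ETS (CCGGAAGT, for 3 of 64 genes) and estrogen-related receptor motifs (TCAAGGTCA, for 1) were tried first and shortened after few matches were found. A MEF2 core (CTA and TAG with 4 bases between, for 1) was dropped. These shares are descriptions only. Some alleles of the model are not reported here.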

Additional observations from a re-analysis of the deposited data

Results flagged for a closer look

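In 3 of 60 groups of samples tested, 1 sample stood far from the others relative to the range of its group; chance alone marks about 1 group in 20. Among the 8 NPK samples, replicate 6 had the lowest level of Atp5g2, 11.0005 against 11.477 for the next. Replicate 6 was also lowest for Cox7a2, at 6.94408 against 7.5076 for the next. Replicate 8 had the lowest level of Cox6a1, 13.3966 against 13.6436 for the next.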

How the results depend on the processing

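Counts of rises and of falls both depended on processing, as did the share of all genes called. In NPK against NP (7 higher, 15 lower, 33.3% of all genes called), median scaling gave 0 higher and 45 lower (49.8%). The chip as a random block gave 2 higher and 11 lower (19.0%), and the authors' values 11 higher and 14 lower (31.7%). Leaving out the chip of NP 1 to 5 gave 2 higher and 16 lower (25.9%). Leaving out that of NP 6 to 8 gave 3 higher and 9 lower (22%). The seminal vesicle mean as a covariate gave 3 higher and 8 lower (16.8%). At 3 months against 1 month (5 higher, 2 lower, 19.2%), median scaling gave 10 higher (20.6%), array weights 3 higher (16.2%), only the 2 groups compared 0 higher (10.7%), the muscle mean 2 higher and 1 lower (15.1%), and the seminal vesicle mean 1 higher (11.1%). At 1 month against NP (5 higher, 26 lower, 37.5%), median scaling gave 3 higher and 34 lower (37.8%). The chip as a random block gave 3 higher and 22 lower (25.2%), and array weights 11 higher and 29 lower (55.4%). The muscle mean gave 2 higher and 12 lower (14.8%), and the seminal vesicle mean 2 higher and 14 lower (14.1%). The replicate number was also fitted as a block, though the numbers pair no samples. NPK against NP then had 3 higher and 13 lower (29.3%) and 3 months against 1 month 3 higher and 2 lower (15.9%). Leaving out 1 sample at a time gave 4 to 8 higher and 12 to 16 lower in NPK against NP (28.8% to 34.5%). At 1 month against NP it gave 3 to 6 higher and 21 to 25 lower (25.6% to 36.9%). Leaving out a 1-month array gave 2 to 4 higher and 2 lower at 3 months against 1 month (13.7% to 15.4%). Leaving out an NP sample gave 6 to 7 higher and 19 to 23 lower at 3 months against NP (46.2% to 47.5%). Counts with a single 3-month array are not given here. Signs turned under median scaling for Ndufa10 (-0.0435), Ndufa12 (-0.0866), Cox6a1 (-0.12), Atp5c1 (-0.10), Atp5j2 (-0.18) and Ndufb6 (-0.16) in NPK against NP, and with the muscle mean for Cox6a2 at 1 month against NP (-0.0892). Values of dim probes near the noise are the least precise. The causes were not tested.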
